A study of Saccharomyces cerevisiae with 18 samples.

Results

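The genes described here are the 4 members of the glycogen synthase kinase 3 (GSK3) family in Saccharomyces cerevisiae, MRK1 (YDL079C), RIM11 (YMR139W), MCK1 (YNL307C) and YGK3 (YOL128C), out of 5449 genes measured. They come from a fixed list of names, each represented by the probe set selected on the highest mean signal over the 18 arrays, although each had only 1. The list was drawn up with results of these arrays known, so the genes count as chosen by measured values, above all the group means of MRK1. The levels of MRK1 are therefore given as a description without p-values. For RIM11, MCK1 and YGK3 p-values are given, with the limit that these genes come from the same list. The genes lie on chromosomes IV (MRK1), XIII (RIM11), XIV (MCK1) and XV (YGK3).

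The study asked how far a mammalian AMP-activated protein kinase (AMPK) can stand in for its yeast counterpart Snf1. All strains were snf1 deletion mutants with 1 plasmid each. HA-Alpha1 encoded a chimera of the catalytic domain of the AMPK Alpha1 subunit with the regulatory domain of Snf1, HA-T210A encoded Snf1 with Ala in place of the activating Thr210, and HA-Snf1 encoded unchanged Snf1, the comparison strain. Cultures started from 40 g/L glucose in aerated 1 L bioreactors held at pH 5.0 and 30 °C, and were sampled at low (5 g/L) or high (15 to 20 g/L) glucose. This gave 6 groups of 3 arrays, called biological replicates in the labels. How the cultures within or between groups were related, and the promoter that drove each plasmid gene, are not given in the sources used here, so p-values measure the spread between these arrays. With no strain that lacks Snf1 altogether, and 1 construct each, a value describes these plasmid strains only.

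GSK3 kinases are serine/threonine kinases of the CMGC group, which also holds cyclin-dependent and mitogen-activated protein kinases. They often act on substrates that another kinase has phosphorylated beforehand. In budding yeast, Rim11 phosphorylates Ime1 and Ume6, which lets the pair of proteins switch on early meiotic genes, and Mrk1 is its paralog. Mck1 acts in meiosis, chromosome segregation and the turnover of cell cycle proteins, and Ygk3 is its paralog. The family as a whole has been linked to transcription of stress genes through Msn2 and to turnover of the lipase-like protein Rog1.

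All values are log2 signals, and levels are compared between arrays for 1 probe set at a time, since different probe sets differ in brightness. A floor line was set at 3.25, the mean of the lowest signals of the arrays plus 1. Signals near it may be background. The 3 arrays of Alpha1 at low glucose differed among themselves more than those of any other group, with a median SD per gene of 0.221 against 0.104 to 0.125 elsewhere. Within-group correlations were at least 0.978 in that group and at least 0.992 in the others. The probe set for SNF1 read 12.3 to 13.2 in Alpha1 arrays, 6.93 to 9.52 in T210A arrays and 7.06 to 8.74 in Snf1 arrays. It can read plasmid transcripts, so it does not check the deletion. Over 261 genes of chromosome VIII the median T210A signal was 0.74 above that of Snf1 at high glucose and 0.57 above it at low glucose. None of the kinase genes lies there.

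MRK1, the paralog of RIM11, was near the floor in every strain at high glucose and differed widely between strains at low glucose. In Alpha1 the signal was 6.91, 6.22 and 8.44 in the low-glucose arrays, against 2.70, 2.74 and 2.69 in the high-glucose arrays. In T210A it was 3.29, 3.88 and 3.71 at low glucose, against 2.69, 2.74 and 2.69 at high glucose. In Snf1 it was 9.35, 9.57 and 9.59 at low glucose, against 2.70, 2.74 and 2.73 at high glucose. Low and high arrays did not overlap in any strain, and at low glucose no array of 1 strain overlapped with those of another. T210A was the lowest at low glucose and Snf1 the highest, with Alpha1 between them. RNA from whole cultures does not separate a lower amount per cell from fewer expressing cells.

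**Figure D1:**
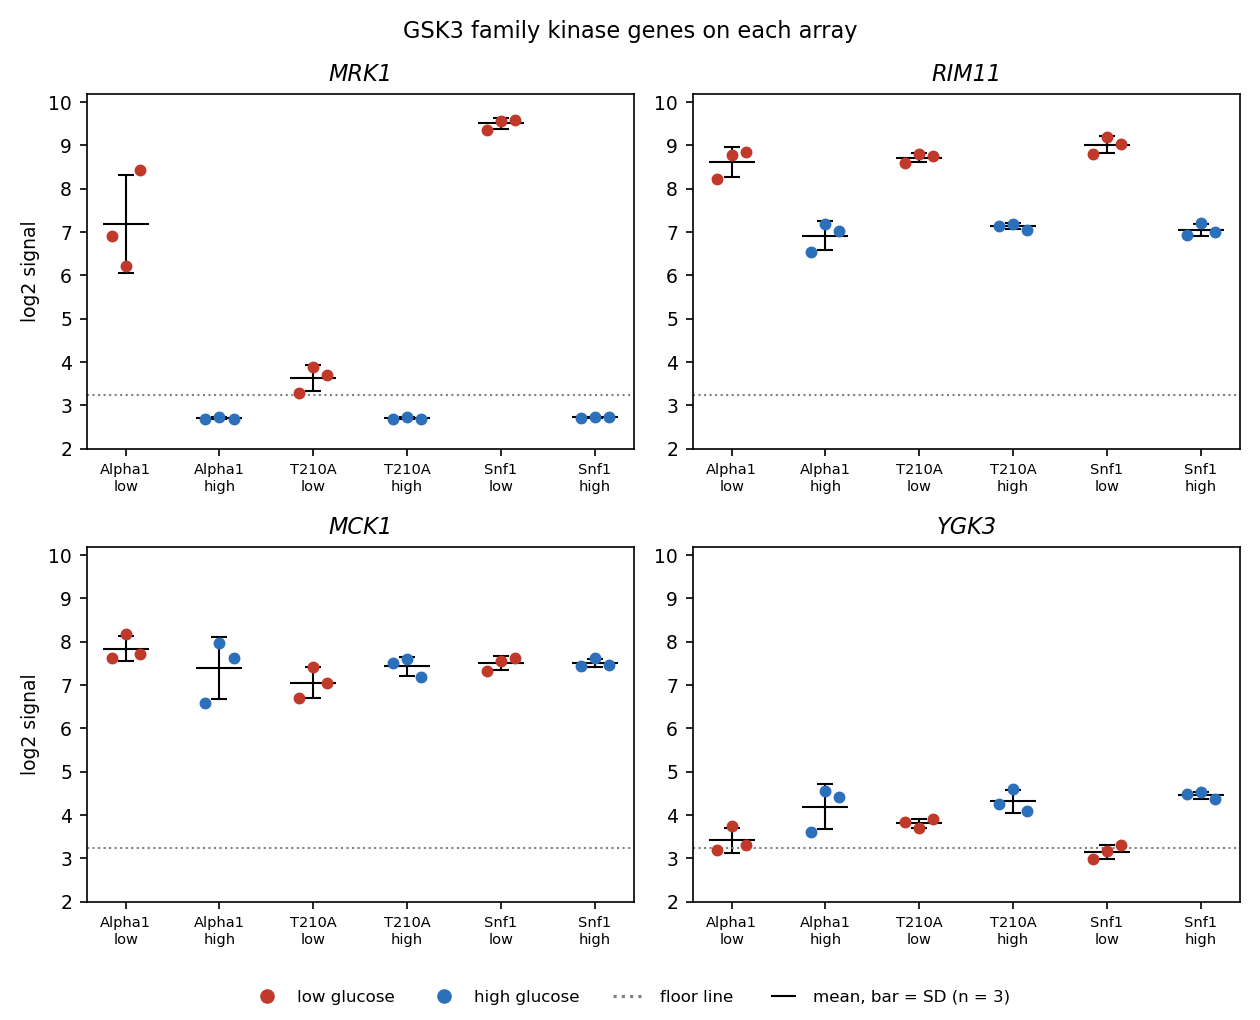
Log2 signal of MRK1, RIM11, MCK1 and YGK3 on each of the 18 arrays (points), with the mean and SD of each group of 3 (bars), for Alpha1, T210A and Snf1 at low and high glucose. The dotted line is the floor line of 3.25. MRK1 lies below it in all high-glucose groups and takes 3 separate levels at low glucose, while RIM11 shows low-glucose arrays above high-glucose arrays in each strain.

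The group means of MRK1 at low glucose were 7.19 ± 1.13 in Alpha1, 3.63 ± 0.30 in T210A and 9.51 ± 0.13 in Snf1 (SD, n = 3 each). At high glucose they were 2.71 ± 0.03 in Alpha1, 2.71 ± 0.03 in T210A and 2.72 ± 0.02 in Snf1 (SD, n = 3 each). All 3 high-glucose means were below the floor line, and the T210A low-glucose mean was near it. The folds of low over high glucose therefore depend on levels that may be background. Low minus high was 4.48 ± 0.38 in Alpha1 (SE), a ratio of 22.4. It was 0.92 ± 0.38 in T210A, a ratio of 1.89, and 6.78 ± 0.38 in Snf1, a ratio of 110.2. The shared SE is set largely by the spread in Alpha1 at low glucose. Fits to the 6 arrays of each strain alone gave SEs of 0.59 in Alpha1, 0.16 in T210A and 0.07 in Snf1. The T210A difference is the least firm of the 3, at 0.39 after quantile normalization.

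At low glucose, MRK1 was 5.88 ± 0.38 log2 units lower in T210A than in Snf1, a ratio of 58.9. It was 2.32 ± 0.38 lower in Alpha1 than in Snf1, a ratio of 4.98. Alpha1 was 3.56 ± 0.38 above T210A, a ratio of 11.8. The T210A mean of 3.63 was near the floor line, so the ratios of 58.9 and 11.8 are uncertain. Fits to the compared groups alone gave SEs of 0.59 for Alpha1 against Snf1 and 0.60 for Alpha1 against T210A. For T210A against Snf1 such a fit gave an SE of 0.17. Replicate 3 of Alpha1 at low glucose was the highest of its group, and without it the Alpha1 response was 3.86, a ratio of 14.5. Without that array Alpha1 was 2.94 below Snf1 at low glucose, a ratio of 7.67, and 2.94 above T210A, a ratio of 7.68. The order of the 3 strains was the same with and without it. At high glucose the strain differences were within 0.02 log2 units.

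RIM11, the kinase that acts on Ime1 and Ume6, rose at low glucose in all 3 strains, by 1.58 to 1.98 log2 units. Its signal was 8.22, 8.77 and 8.85 in Alpha1 at low glucose, against 6.54, 7.20 and 7.02 at high glucose. In T210A it was 8.60, 8.80 and 8.75 at low glucose, against 7.15, 7.19 and 7.06 at high glucose. In Snf1 it was 8.81, 9.21 and 9.04 at low glucose, against 6.93, 7.20 and 7.005 at high glucose. Every low-glucose array lay above every high-glucose array, whatever the strain. Low minus high was 1.70 ± 0.18 in Alpha1 (SE), a 3.25-fold rise (limma, Benjamini-Hochberg adjusted p = 1.67e-06). The rise was 1.58 ± 0.18 in T210A (limma adjusted p = 2.81e-06), and 1.98 ± 0.18 or 3.94-fold in Snf1 (limma adjusted p = 2.48e-07).

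Strain differences in RIM11 were small beside that step. At low glucose the mean was 8.62 ± 0.34 in Alpha1, 8.72 ± 0.10 in T210A and 9.02 ± 0.20 in Snf1 (SD, n = 3 each). T210A minus Snf1 was -0.30 ± 0.18 (limma adjusted p = 0.166), although the T210A arrays all lay below the Snf1 arrays. With the replicate number as a block over all 6 groups, the same difference passed the threshold (limma adjusted p = 0.0402). Same-numbered arrays deviated together in this pair of groups, but not in every pair that the block covers. A fit to these groups alone did not pass (limma adjusted p = 0.0706). Alpha1 minus Snf1 was -0.40 ± 0.18 (limma adjusted p = 0.106), with overlapping arrays. The glucose response of Alpha1 minus that of Snf1 was -0.28 ± 0.25, with a limma adjusted p of 0.549. That of T210A minus that of Snf1 was -0.39 ± 0.25, with a limma adjusted p of 0.245. These values do not show that the responses were alike, since a difference of the size of the SE could not be told from 0 here.

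**Figure D2:**
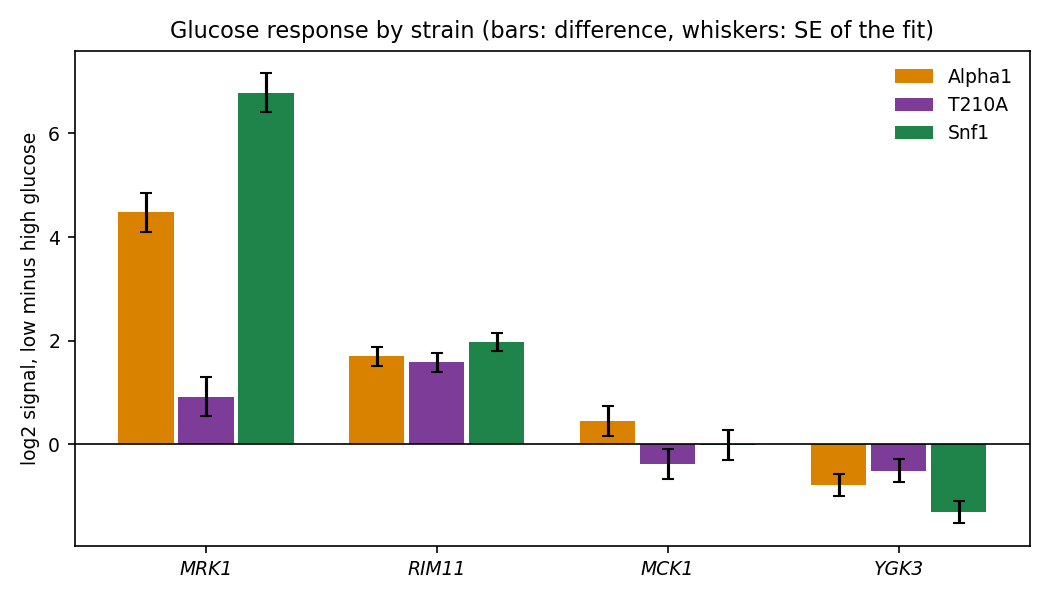
Low minus high glucose in log2 signal for the 4 kinase genes in Alpha1, T210A and Snf1 (bars), with the SE of the fit over 18 arrays (whiskers). The MRK1 bars differ between strains (4.48, 0.92 and 6.78), those of RIM11 lie between 1.58 and 1.98, those of MCK1 are on both sides of 0, and those of YGK3 are all below 0.

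MCK1, the family member with roles in meiosis and chromosome segregation, did not pass the threshold for glucose in any strain when all 18 arrays were weighted equally. Its signal was 7.64, 8.18 and 7.72 in Alpha1 at low glucose, against 6.59, 7.97 and 7.62 at high glucose. In T210A it was 6.70, 7.42 and 7.05 at low glucose, against 7.51, 7.59 and 7.18 at high glucose. In Snf1 it was 7.33, 7.56 and 7.63 at low glucose, against 7.44, 7.62 and 7.47 at high glucose. Low and high arrays overlapped in every strain. Low minus high was 0.45 ± 0.29 in Alpha1 (SE, limma adjusted p = 0.187), -0.37 ± 0.29 in T210A (limma adjusted p = 0.262) and -0.01 ± 0.29 in Snf1 (limma adjusted p = 1). The Alpha1 value rests on single arrays, at 0.05 without replicate 1 of the high-glucose group and at 0.74 without its replicate 2 (limma adjusted p = 0.0359 for that value). With arrays weighted by quality the T210A value was -0.62 (limma adjusted p = 0.0039).

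Among strain comparisons of MCK1, Alpha1 was higher than T210A at low glucose. The means were 7.84 ± 0.29 in Alpha1 and 7.06 ± 0.36 in T210A (SD, n = 3 each), and 7.51 ± 0.16 in Snf1. The arrays of Alpha1 and T210A did not overlap, and the difference was 0.79 ± 0.29 or 1.73-fold (limma adjusted p = 0.0412). That call ended without any 1 of 10 arrays, which were replicates 2 and 3 of Alpha1 at low glucose, replicates 1 and 3 of T210A at low glucose, replicate 1 of T210A at high glucose, replicates 2 and 3 of Snf1 at low glucose and all 3 of Snf1 at high glucose. It also ended when these groups were fitted alone (limma adjusted p = 0.0742) and when tested against a minimum fold of 1.5. At low glucose, Alpha1 minus Snf1 was 0.34 (limma adjusted p = 0.417) and T210A minus Snf1 was -0.45 (limma adjusted p = 0.203). With the same weights the T210A difference became -0.76 (limma adjusted p = 0.000486).

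YGK3, the paralog of MCK1, had signals near the floor line. Its mean was lower at low glucose in all 3 strains, past the threshold in Alpha1 and Snf1 but not in T210A. Its signal was 3.19, 3.74 and 3.31 in Alpha1 at low glucose, against 3.62, 4.56 and 4.41 at high glucose. In T210A it was 3.84, 3.70 and 3.91 at low glucose, against 4.25, 4.61 and 4.09 at high glucose. In Snf1 it was 2.995, 3.16 and 3.32 at low glucose, against 4.48, 4.53 and 4.37 at high glucose. Low and high arrays overlapped in Alpha1 and were separate in T210A and Snf1. YGK3 fell by 0.78 ± 0.22 in Alpha1 (SE, limma adjusted p = 0.00618) and by 1.30 ± 0.22 or 2.47-fold in Snf1 (limma adjusted p = 0.000108). The T210A difference was -0.50 ± 0.22 (limma adjusted p = 0.0522). It passed the threshold in 11 of 29 alternatives, among them quantile normalization, where it was -1.02, and the omission of replicate 1 or 2 of Alpha1 at high glucose, replicate 2 of Alpha1 at low glucose or replicate 3 of T210A at high glucose. The Alpha1 call ended when the 6 Alpha1 arrays were fitted alone (limma adjusted p = 0.0892) and when a minimum fold of 1.5 was asked for (limma adjusted p = 0.524).

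At low glucose YGK3 averaged 3.42 ± 0.29 in Alpha1, 3.81 ± 0.11 in T210A and 3.16 ± 0.16 in Snf1 (SD, n = 3 each). The Snf1 mean was below the floor line. T210A was 0.66 ± 0.22 above Snf1, or 1.58-fold, with no overlap of arrays (limma adjusted p = 0.0195). That call ended without replicate 3 of T210A at low glucose (limma adjusted p = 0.0595), without replicate 1 of Snf1 at low glucose (limma adjusted p = 0.0688) and after quantile normalization, where the difference was 0.32 (limma adjusted p = 0.0751). It also ended when a minimum fold of 1.5 was asked for. The glucose response of T210A minus that of Snf1 was 0.80 ± 0.31 (limma adjusted p = 0.0538). It passed in 10 of 29 alternatives, among them the replicate block (limma adjusted p = 0.0308), the 2 strains fitted alone (limma adjusted p = 0.00606), array weights (limma adjusted p = 0.00157), and the omission of replicate 1 or 2 of Alpha1 at high glucose, replicate 2 of Alpha1 at low glucose or replicate 2 of T210A at high glucose. Alpha1 minus Snf1 at low glucose was 0.26, and the limma adjusted p was 0.414. In RIM11, MCK1 and YGK3 alike, replicate 1 was the lowest of the 3 Alpha1 arrays at high glucose, and its array median of 6.77 was the lowest of all arrays.

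In level order, the 6 groups of MRK1 ran Snf1 low, Alpha1 low and T210A low, each apart from the next, and then the 3 high-glucose groups, which overlapped. For RIM11, Snf1 low lay above T210A low without overlap, T210A low and Alpha1 low overlapped, and all 3 high-glucose groups overlapped below them. For MCK1, only Alpha1 low stood apart from its next neighbour, Snf1 high, and T210A low had the lowest mean. For YGK3 every neighbour in the order overlapped with the next, from Snf1 high at the top through T210A high, Alpha1 high, T210A low and Alpha1 low to Snf1 low.

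The kinase genes called for glucose are given beside the share of all genes called. In Alpha1, 2 of 4 were higher at low glucose and 1 was lower, where 34.3% of all genes were called higher and 29.2% lower. In T210A, 2 of 4 were higher and 0 lower, where 37.7% of all genes were higher and 32.8% lower. The 0 lower calls there come from limma, and YGK3 was the 1 gene lower at an unadjusted p under 0.05. In Snf1, 2 of 4 were higher and 1 lower, where 34.7% of all genes were higher and 32.7% lower. MRK1 is one of the higher genes in each strain and was chosen with this pattern known, so nothing is read from these counts. The T210A call for MRK1 ended in 15 of 29 alternatives, among them the omission of any 1 array other than the 3 of Alpha1 at low glucose and replicate 1 of T210A and of Snf1 at low glucose.

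Between strains at high glucose, none of the 4 genes was called. This was 0 of 4 for Alpha1 against Snf1, where 0.918% of all genes were called, 0 of 4 for T210A against Snf1, where 4.18% were, and 0 of 4 for Alpha1 against T210A, where 6.31% were. In all 3 of these limma comparisons the count at an unadjusted p under 0.05 was also 0. At low glucose, Alpha1 against Snf1 gave 0 higher and 1 lower of 4, where 17% of all genes were higher and 12.9% lower. That call, for MRK1, was lost when the 6 arrays of these groups were fitted alone. T210A against Snf1 gave 1 higher (YGK3) and 1 lower (MRK1), where 29.7% of all genes were higher and 26.5% lower. Alpha1 against T210A gave 2 higher (MRK1 and MCK1) and 0 lower, where 20.8% of all genes were higher and 20.8% lower. For the difference between glucose responses, 1 of 4 genes, MRK1, was called in each pair of strains, though for Alpha1 against Snf1 not when these strains were fitted alone or a minimum fold of 1.5 was asked for. The share of all genes called was 13.7% for Alpha1 against Snf1, 39.5% for T210A against Snf1 and 20.3% for Alpha1 against T210A. These comparisons share arrays: each strain enters 2 of the strain pairs. MRK1 was chosen with this pattern known, so nothing is read from the calls it adds to these counts.

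Genes with a pattern like that of each kinase were found over the 6 group means among 5121 genes, by the root mean square difference after each gene was centred. This is a description of 6 points that share arrays. The nearest to MRK1 were YMR206W at 0.338, the invertase gene SUC2 at 0.422 and REG2, a regulatory subunit gene of the Glc7 phosphatase, at 0.537, where the median over all genes was 2.66. Low minus high for YMR206W was 4.83 in Alpha1, 0.23 in T210A and 7.10 in Snf1, but all 3 of its high-glucose means and its T210A low-glucose mean were below the floor line. For SUC2 it was 3.59 in Alpha1, 0.63 in T210A and 5.70 in Snf1. For REG2 it was 5.03 in Alpha1, 2.03 in T210A and 6.06 in Snf1. The order of the strains is shared with MRK1 by the way these genes were picked. Replicate 3 of Alpha1 at low glucose was the highest of its group in each, at 8.15 for YMR206W, 11.05 for SUC2 and 8.76 for REG2, as it was for MRK1. Of the other kinases of the family, RIM11 came at rank 297 of 5121, MCK1 at rank 1867 with 2.56, and YGK3 at rank 4501 with 3.11, beyond the median of all genes.

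**Figure D3:**
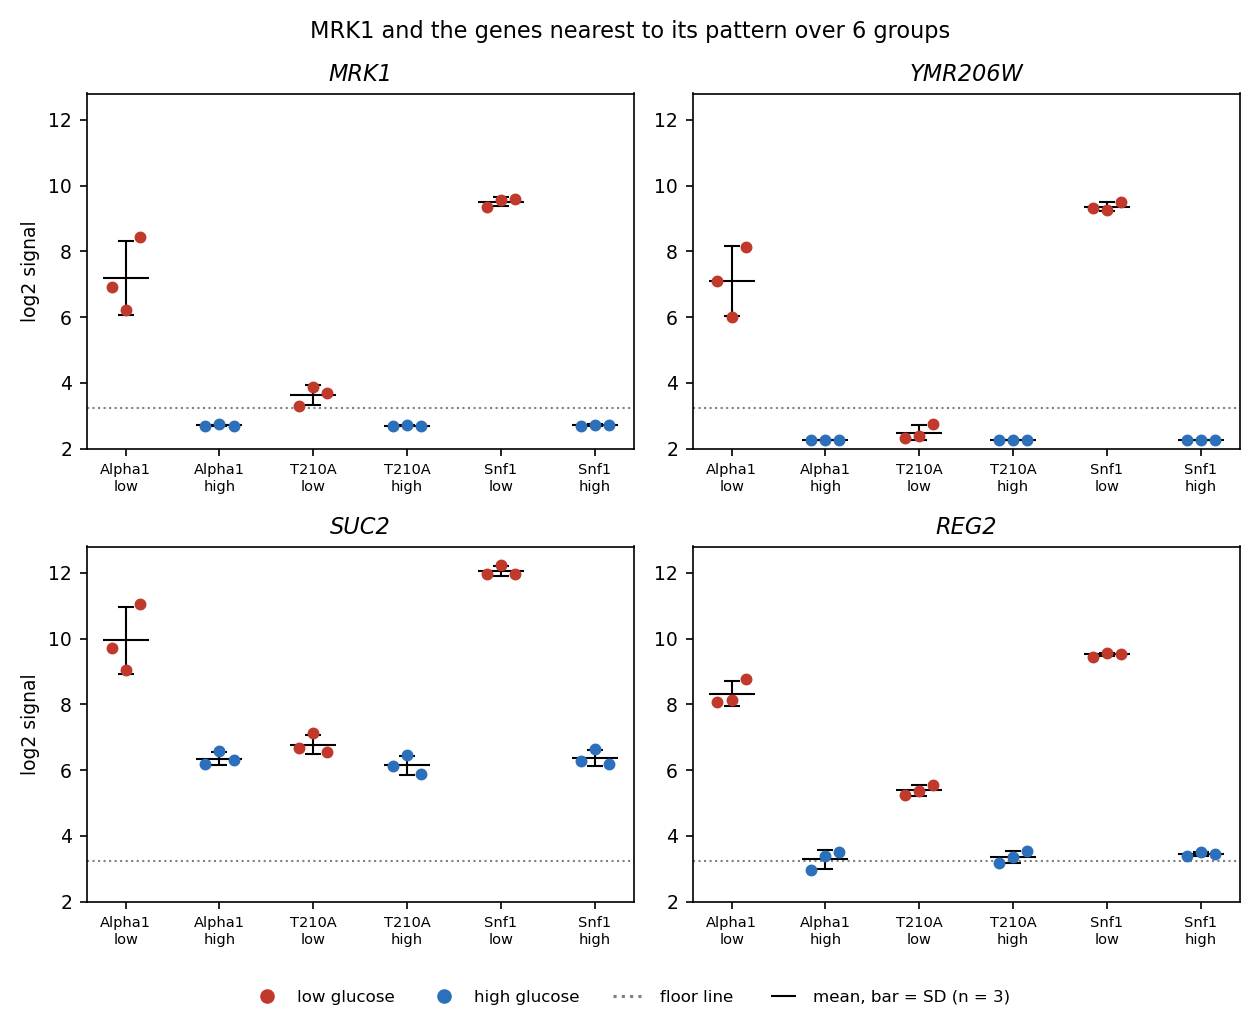
Log2 signal of MRK1, YMR206W, SUC2 and REG2 on each array (points) with group means and SD (bars, n = 3), for Alpha1, T210A and Snf1 at low and high glucose. The genes were picked for group means like those of MRK1, so the shared order of the low-glucose groups (T210A, Alpha1 and Snf1, from low to high) is not a finding. In each gene replicate 3 is the highest Alpha1 array at low glucose.

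RIM11 had much closer neighbours. MRP8 lay at 0.0412, AIM41 at 0.0682 and XYL2, a xylitol dehydrogenase gene, at 0.0689, against a median of 0.911 over all genes. Low minus high for MRP8 was 1.72 in Alpha1, 1.68 in T210A and 2.02 in Snf1, close to the RIM11 values. The nearest to MCK1 were the mitochondrial genes RIM2 (0.0683), a pyrimidine nucleotide carrier, MTO1 (0.0731), a tRNA modification enzyme, and SUV3 (0.0835), an RNA helicase, against a median of 0.439. Low minus high for RIM2 was 0.43 in Alpha1, -0.23 in T210A and 0.02 in Snf1. Replicate 1 of Alpha1 at high glucose was the lowest of its group in each, as it was for MCK1. It read 6.14 for RIM2, 6.11 for MTO1 and 6.22 for SUV3. The nearest to YGK3 were the phosphate-response factor gene PHO4 (0.0945), the rRNA processing gene RRP7 (0.0993) and the exosome subunit gene SKI6 (0.0994), against a median of 0.583. Low minus high for PHO4 was -0.71 in Alpha1, -0.66 in T210A and -1.06 in Snf1. All these genes were picked for group means like those of the kinase, so the shared pattern is not a finding.

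The genes of 4 related lists were examined beside the kinases. The lists were chosen with earlier results of these data known, so their counts and p-values describe the genes and are no test of the lists. Genes are named by their small adjusted p, apart from MSN2. Each list's median is to be read against a median over all genes that lay within 0.0413 of 0 in every comparison. Of 10 genes for GSK3 substrates and partners, 2 rose and 3 fell at low glucose in Alpha1 (median -0.04), 3 rose and 4 fell in T210A (median 0.05), and 3 rose and 3 fell in Snf1 (median 0.01). Of all genes, 34.3% rose and 29.2% fell in Alpha1, 37.7% and 32.8% in T210A, and 34.7% and 32.7% in Snf1. CDC6, which loads the replicative helicase at origins and whose turnover involves Mck1, fell in all 3 strains, by 1.20 ± 0.22 in Alpha1, 1.57 ± 0.22 in T210A and 1.36 ± 0.22 in Snf1 (SE, limma adjusted p at most 0.000296). Its low-glucose means of 3.51 in Alpha1, 3.17 in T210A and 3.43 in Snf1 were near or below the floor line, so the sizes are uncertain. SIC1, an inhibitor of the cyclin-dependent kinase, rose by 0.76 ± 0.12 in Snf1 (limma adjusted p = 7.37e-05), and its difference was 0.03 in Alpha1 and 0.03 in T210A. At low glucose SIC1 was -0.60 ± 0.12 in Alpha1 against Snf1 (limma adjusted p = 0.00216). Its T210A mean there was much like that of Alpha1, at 6.16 against 6.14, with 6.74 in Snf1. UME6, the meiotic regulator that Rim11 phosphorylates, fell by 1.17 ± 0.14 in T210A (limma adjusted p = 5.59e-06) and by 0.56 ± 0.14 in Alpha1 (limma adjusted p = 0.00324), and its difference was -0.18 in Snf1 (limma adjusted p = 0.272).

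Against Snf1 at low glucose, 1 of the 10 substrate and partner genes was higher and 2 lower in Alpha1 (median -0.26), and 1 was higher and 4 lower in T210A (median -0.20). Of all genes, 17% were higher and 12.9% lower in Alpha1, and 29.7% were higher and 26.5% lower in T210A. The gene that was higher in both was ROG1, a lipase-like protein whose turnover involves this kinase family, by 0.77 ± 0.18 in Alpha1 (SE, limma adjusted p = 0.00539) and 0.88 ± 0.18 in T210A (limma adjusted p = 0.000906). UME6 was 0.84 ± 0.14 lower in T210A than in Snf1 (limma adjusted p = 0.000182). RFX1, a repressor of DNA damage genes, was 0.60 ± 0.09 lower in T210A (limma adjusted p = 9.04e-05) and 0.37 ± 0.09 lower in Alpha1 (limma adjusted p = 0.00873).

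Of 11 genes for entry into meiosis, 5 rose and 1 fell at low glucose in Alpha1 (median 0.20), 6 rose and 3 fell in T210A (median 0.57), and 6 rose and 0 fell in Snf1 (median 0.35), beside the same shares of all genes, 34.3% to 37.7% that rose and 29.2% to 32.8% that fell. RIM4, an RNA-binding protein of meiosis, rose by 3.26 ± 0.15 in Alpha1 (SE, limma adjusted p = 6.76e-10), by 1.27 ± 0.15 in T210A (limma adjusted p = 4.31e-06) and by 4.16 ± 0.15 in Snf1 (limma adjusted p = 2.33e-11). Its low-glucose mean was 6.86 in Alpha1, 5.63 in T210A and 7.63 in Snf1, the same order as for MRK1. The high-glucose means were 3.60 in Alpha1, 4.35 in T210A and 3.46 in Snf1. Those of Alpha1 and Snf1 were near the floor line, so the sizes of the rises are uncertain. RIM4 lies on chromosome VIII, where the T210A signals were higher as a whole. RIM15, a kinase of entry into quiescence and meiosis, rose by 0.90 in Alpha1, 0.82 in T210A and 1.01 in Snf1 (limma adjusted p at most 0.000224). RME1, a repressor of IME1, rose by 0.44 ± 0.13 in Alpha1 (limma adjusted p = 0.00862), by 1.47 ± 0.13 in T210A (limma adjusted p = 2.36e-07) and by 0.68 ± 0.13 in Snf1 (limma adjusted p = 0.000303).

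Among 19 genes for the stress factors Msn2 and Msn4 and their targets, 18 rose and 0 fell at low glucose in each strain, with medians of 3.65 in Alpha1, 4.06 in T210A and 3.73 in Snf1. Of all genes, 34.3% to 37.7% rose and 29.2% to 32.8% fell. The list was chosen with earlier results of these data known, so nothing is read from its excess over those shares. The gene that was not called was MSN2 itself, chosen for mention after its values were seen, at -0.13 in Alpha1, -0.31 in T210A and -0.30 in Snf1. GPH1, glycogen phosphorylase, rose by 7.75 in Alpha1, 6.74 in T210A and 8.18 in Snf1, each ± 0.24 (SE), over high-glucose means of 2.93 to 3.07 that were below the floor line. PGM2, phosphoglucomutase, rose by 6.40 in Alpha1, 5.22 in T210A and 6.64 in Snf1, each ± 0.18 (limma adjusted p at most 8.34e-11 for both genes). At low glucose, 4 of the 19 were higher and 3 lower in T210A than in Snf1 (median 0.02), among them GPH1 at -1.46 ± 0.24 (limma adjusted p = 0.000164) and the catalase gene CTT1 at 2.23 ± 0.32 (limma adjusted p = 4.17e-05). In Alpha1 against Snf1, 1 was higher and 3 lower (median -0.24). Of all genes at low glucose, 29.7% were higher and 26.5% lower in T210A than in Snf1. For Alpha1 against Snf1 the shares were 17% and 12.9%.

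**Figure D4:**
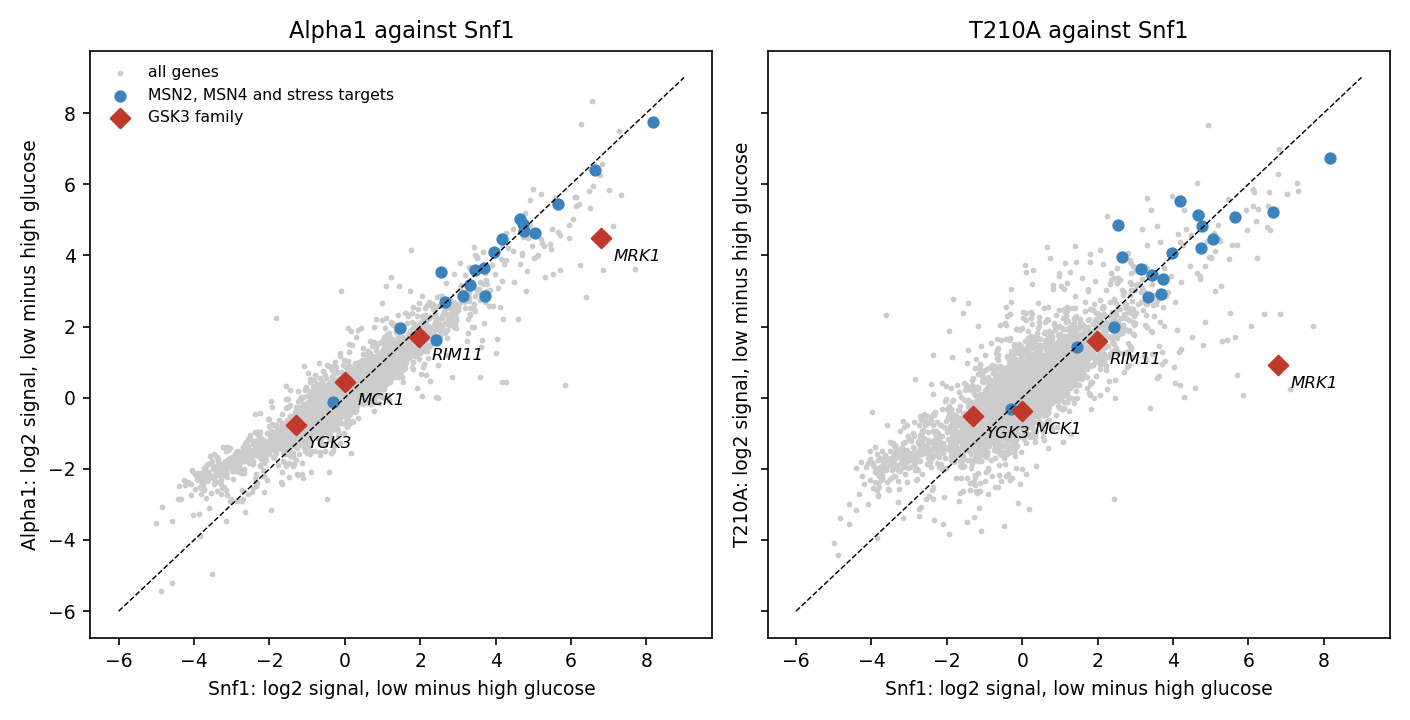
Low minus high glucose in log2 signal for 5449 genes (grey points), with Alpha1 (left panel) or T210A (right panel) on the vertical axis and Snf1 on the horizontal axis. Genes of the Msn2 and Msn4 list are blue, the 4 GSK3 kinase genes are red diamonds, and the dashed line marks equal responses. MRK1 lies at 6.78 in Snf1, 4.48 in Alpha1 and 0.92 in T210A, below the dashed line in both panels, while the other 3 kinase genes lie closer to the line.

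Of 19 other CMGC kinase genes, 8 rose and 0 fell at low glucose in Alpha1 (median 0.47), 9 rose and 4 fell in T210A (median 0.28), and 6 rose and 5 fell in Snf1 (median 0.06), where 34.3% to 37.7% of all genes rose and 29.2% to 32.8% fell. YAK1, a kinase that restrains growth when nutrients are short, rose by 2.22 ± 0.13 in Alpha1 (SE, limma adjusted p = 7.4e-09), 2.32 ± 0.13 in T210A (limma adjusted p = 4.85e-09) and 2.48 ± 0.13 in Snf1 (limma adjusted p = 1.14e-09). KNS1, of the LAMMER kinases, rose by 1.84 in Alpha1, 1.83 in T210A and 2.18 in Snf1, each ± 0.21 (limma adjusted p at most 3.71e-06). Like RIM11, both rose in every strain. KIN28, the kinase of the transcription factor TFIIH, fell by 0.56 ± 0.09 in Snf1 (limma adjusted p = 4.85e-05), with -0.02 in Alpha1 and 0.27 in T210A. At low glucose, 4 of the 19 were higher and 2 lower in Alpha1 than in Snf1 (median 0.01), and 6 were higher and 3 lower in T210A than in Snf1 (median 0.02). Of all genes, 17% were higher and 12.9% lower in Alpha1, and 29.7% were higher and 26.5% lower in T210A. SLT2, the cell wall integrity kinase, was 2.06 ± 0.28 higher in T210A (limma adjusted p = 3.34e-05), and it lies on chromosome VIII.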

How the data were processed

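RNA from yeast cultures was measured on 18 Affymetrix yeast arrays, 3 for each of 6 groups. The deposited table holds log2 signals per probe set, made by the authors with RMA and the affy package, per the submitters' processing notes. The package versions, annotation and any genome build are not given in the sources used here, and no further scaling was applied. All columns of the table matched a sample. RMA subtracts background and summarises probes, so signals near the floor are compressed and their differences are uncertain. Precision is limited by there being 3 arrays a group.

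Of 5716 probe sets, with values from 2.25 to 14.3, 5498 named 1 gene and 218 none. The probe set with the highest mean stood for each of 47 genes with several, which left 5449 genes, and 12 symbols were updated from a RefSeq table, which also gave chromosomes. Array medians ran from 6.77 to 7.03. No pair of arrays was identical (smallest SD of a difference 0.147).

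A model of 6 group means was fitted to all genes and arrays with limma 3.58.1 in R 4.3.3 (lmFit and eBayes), and p-values were adjusted by Benjamini-Hochberg over 5449 genes in each comparison, with calls at 0.05. All tests were two-sided. The fit was tested on simulated data. The kinase genes and the 4 lists were chosen with earlier results of these data known. The genes named were the 4 kinases, up to 4 genes per list and comparison with the smallest adjusted p, and the 3 genes with the pattern nearest to each kinase. Same-numbered arrays deviated together (every correlation above 0.1) in 8 of the 15 pairs of groups, among them T210A and Snf1 at low glucose, where the lowest was 0.239. The pairing there comes from these correlations alone, since the labels give only numbers. Alternatives were a replicate block, other normalizations, filters on dim genes, array weights, a minimum fold, the compared groups alone and omission of each array. No sequences of the genes are printed.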

Additional observations from a re-analysis of the deposited data

Results flagged for a closer look

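The glucose response of MRK1, low minus high in log2 signal, is listed because the response contrasts between strains were past the threshold of the fit. MRK1 was chosen with this pattern known, so the values are given as a description and the contrasts are no test of it. The response of Alpha1 minus that of Snf1 was -2.30 ± 0.53 (SE), that of T210A minus that of Snf1 was -5.86 ± 0.53, and that of Alpha1 minus that of T210A was 3.56 ± 0.53. With the compared strains fitted alone, the SEs were 0.62, 0.18 and 0.64 in that order. All 3 arrays of each strain lay on their own side at low glucose. Without replicate 3 of Alpha1 at low glucose, the first difference was -2.92 and the last 2.94. The high-glucose levels of all 3 strains were below the floor line of 3.25, so the responses are differences from a level that may be background. The T210A mean at low glucose, 3.63, was near that line.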

How the results depend on the processing

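Over 48 differences of the 4 kinase genes and 30 alternative settings, no difference that passed the threshold changed sign, and of 16 such differences 10 also stayed past it in every setting run. Most of the 16 and most of the 10 belonged to MRK1, which was chosen with its pattern known. Neither these counts nor those that follow are read as support for that pattern. Leaving out genes with a mean under 5 removed MRK1 and YGK3 before the test, so the counts could only cover RIM11 and MCK1. Of these 2 genes, the number called was 1 for low minus high glucose in Alpha1, 1 in T210A and 1 in Snf1, 0 for Alpha1 and 0 for T210A against Snf1 at low glucose, 1 for Alpha1 against T210A at low glucose, and 0 for each of the 3 differences between responses. The shares of all genes kept by that filter were 68.7%, 74.7% and 72.3% for the glucose responses in that order. They were 32.6%, 59.3% and 43.9% for the low-glucose strain pairs in that order. For the response differences they were 15.1% for Alpha1 against Snf1, 41.9% for T210A against Snf1 and 20.8% for Alpha1 against T210A. With array weights the number called of 4 was 4 for the T210A response, 4 for T210A against Snf1 at low glucose and 4 for the contrast of their responses, while the share of all genes called was 81%, 74.3% and 59.7% in these comparisons, against 70.5%, 56.3% and 39.5% without weights. With a minimum fold of 1.5 it was 1 for the T210A response, 1 for T210A against Snf1 and 1 for Alpha1 against T210A at low glucose, and 0 for the Alpha1 against Snf1 response contrast, where 30.7%, 17.1%, 6.17% and 2.2% of all genes were called. With the compared groups fitted alone it was 0 for Alpha1 against Snf1 and 1 for Alpha1 against T210A at low glucose, 0 for the Alpha1 against Snf1 response contrast and 2 for the T210A against Snf1 response contrast, where 11.1%, 22.8%, 9.01% and 48.7% of all genes were called. With the replicate block it was 2 for Alpha1 against Snf1 at low glucose and 2 for the T210A against Snf1 response contrast, and with arrays centred on their medians it was 2 and 2 for the same comparisons. All genes were called at 37% and 46.7% with the block, and at 32.2% and 42.8% with the centring. Quantile normalization gave 1 for T210A against Snf1 at low glucose, with 60.3% of all genes called. An intensity trend with a robust prior gave 2, and asking for 3 arrays above the floor line gave 2, for the T210A against Snf1 response contrast, with 39.1% and 41.1% of all genes called. Wherever that contrast gave 2, the called genes were MRK1 and YGK3. Where 1 array was left out, the count ran from 1 to 3 for the T210A response, 1 to 2 for T210A against Snf1 at low glucose, 1 to 2 for Alpha1 against T210A at low glucose and 1 to 2 for the T210A against Snf1 response contrast. The share of all genes called was not worked out for the fits that left out an array, so nothing is read from those counts. The cause of the changes in count between settings was not tested.

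With the replicate block, the adjusted p of RIM11 was 0.0179 for Alpha1 against Snf1 at low glucose and that of YGK3 for the T210A response was 0.0321. In those group pairs the numbers were not shown to pair the arrays. Over all alternatives the adjusted p ran from 0.00535 to 1 for MCK1 in Alpha1 against T210A at low glucose.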

Other observations

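The genes next to each kinase on its chromosome are described by low minus high glucose. Both neighbours of MRK1 rose in all 3 strains, by amounts that differed less between strains than those of MRK1. All neighbour differences passed the threshold except SIP5 in Snf1 (limma adjusted p = 0.085) and MRPS18 in T210A (limma adjusted p = 0.141). Of all genes, 63.5% passed it in Alpha1, 70.5% in T210A and 67.3% in Snf1, so nothing is read from these calls. MRK1 lies between THI3 and MDH3, the gene of peroxisomal malate dehydrogenase. THI3 differed by 0.69 in Alpha1, 0.76 in T210A and 0.70 in Snf1, and MDH3 by 1.10 in Alpha1, 1.02 in T210A and 1.39 in Snf1. RIM11 lies between CIN4, at -0.52 in Alpha1, -0.41 in T210A and -0.93 in Snf1, and SIP5, at 0.92 in Alpha1, 1.08 in T210A and 0.48 in Snf1. MCK1 lies beside KRI1, a ribosome biogenesis gene, at -1.72 in Alpha1, -0.77 in T210A and -2.74 in Snf1, and beside the mitochondrial ribosomal protein gene MRPS18, at 0.83 in Alpha1, 0.16 in T210A and 0.86 in Snf1. YGK3 lies between VPS68, at 0.57 in Alpha1, 0.33 in T210A and 0.80 in Snf1, and the ribosomal protein gene RPL25, at -0.45 in Alpha1, -0.76 in T210A and -0.61 in Snf1.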
